A study of Zea mays with 6 samples.

Results

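The genes described here are targets of conserved regulatory miRNA families that are not annotated as transcription factors, in the ovary of maize (Zea mays). They were taken from the deposited degradome table by its annotation. A gene was kept when every one of its entries carried an annotation and no transcription factor family, when all of its miRNAs belonged to the families miR156, miR159, miR160, miR164, miR166, miR167, miR169, miR170, miR171, miR172, miR319, miR396 or miR529, and when no annotation named a homeobox, MYB domain, growth-regulating, auxin response, SQUAMOSA, NAC domain, TCP, SCARECROW, GRAS, AP2 or nuclear factor Y protein. Of 113 target genes in the table, 49 met this rule, with 72 transcripts and 93 pairs of a miRNA and a transcript. GRMZM2G001850 met it only because its miRNA, bdi-MIR164e-p3_1ss14TC, was read as miR164 in spite of the capitals in its name. Just outside it lay 9 genes of the same families, 7 of them without any annotation. The other 2 were GRMZM2G083095, a chaperonin whose annotation holds the letters TCP, and GRMZM2G104025, a ribosomal protein with 1 unannotated entry. The transcription factor (TF) targets of the same families, 39 genes, served for comparison.

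The libraries came from ovaries with incompletely fused carpels (IFC) and ovaries with completely fused carpels (CFC, labelled wild-type) of the inbred line Yu-A474, grown without stress and collected at silking, before pollination. Both kinds of ovary were taken side by side from the middle of the same ear of this single inbred line. Small RNA was sequenced in 2 IFC and 2 CFC libraries, and the degradome, the 5′ ends of cut mRNAs, in 1 IFC and 1 CFC library, each a mix of the 2 samples of its phenotype. Degradome values therefore have no replicates, no test between the phenotypes was possible, and intervals cover counting error only.

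A plant miRNA leads an ARGONAUTE protein to an mRNA with a nearly complementary site, and the mRNA is cut opposite the middle of the miRNA. The families above are best known for cutting mRNAs of transcription factors that set organ identity, boundaries and growth, such as SPL genes for miR156, MYB genes for miR159, NAC genes for miR164, class III HD-ZIP genes for miR166, NF-YA genes for miR169, GRAS genes for miR171, AP2 genes for miR172 and GRF genes for miR396. The hairpin precursor also yields a passenger strand from the opposite arm, which is usually degraded, and shortened or lengthened variants of both strands (isomiRs). By annotation, the 49 genes encode mainly housekeeping and signalling proteins instead: proteases and ubiquitin ligases, ribosomal proteins, splicing and RNA-binding proteins, phosphatase partners, enzymes and transporters. The rule reads only the annotation and the listed family, so regulators of transcription under other names are not excluded.

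The guides were 37 miRNA sequences by name, and a selection is shown here as DNA letters, 5′ to 3′, for the guides with the most genes and those of the sites with the strongest signal, the best category or p-value or the closest alignment, with the seed (bases 2 to 8) in capitals. In the names, L and R give bases lost or gained at the left and right end of the known miRNA, and ss a substitution.
zma-miR164h-5p_R-3: tGGAGAAGcagggcacgt
zma-miR169i-3p_R+1_1: gGCAGTCTccttggctagc
zma-miR169i-3p_R+1_2: gGCAGTCTccttggctagt
zma-miR156a-5p: tGACAGAAgagagtgagcac
zma-miR156a-5p_L-1: gACAGAAGagagtgagcac
zma-miR156h-3p: gCTCACTGctctttctgtcatc
zma-miR159h-3p: tTTGGAGTgaagggagctctg
zma-miR166a-3p: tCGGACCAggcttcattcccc
zma-miR171l-3p_L-3: tTGAGCCGcgtcaatatc
gma-miR171m_1ss21AC: tTGAGCCGcgtcaatatctcc
zma-miR396e-5p: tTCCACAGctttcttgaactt

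The genes were unevenly spread over the seeds. The 37 guides had 25 seeds. The seed GGAGAAG of the miR164 5p arm occurred in 3 guides with sites in 9 of the 49 genes, and 8 of these were sites of the 18-nt zma-miR164h-5p_R-3 shown above. The seed GCAGTCT belonged to 2 sequences of 19 nt from the passenger arm of miR169i, which differ only at the last base (C19T, counted from the 5′ end of the first), and had sites in 8 genes. These 3 sequences together accounted for 16 of the 49 genes. The seed CGGACCA was shared by 6 variants of miR166-3p, all with sites in the same 2 genes. The 2 miR171 guides share the seed TGAGCCG, and the shorter one is the first 18 bases of the longer one.

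Passenger strands were frequent among the guides. By family and arm, 22 guides came from the arm that carries the functional miRNA and 14 from the passenger arm. The remaining 1, zma-miR172e, had no arm in its name and shared no sequence with a named arm, so it was counted for neither. It is largely complementary to the passenger-arm guide zma-miR172b-5p_L+1, as a functional-arm sequence would be. Its gene, GRMZM5G856084, is therefore in neither arm count below. All sites of 24 of the 49 genes came from the functional arm, against 37 of the 39 TF targets, and all sites of another 24 from the passenger arm, against 1 of the 39. Of 21 distinct functional-arm sequences 20 began with T (uridine in the RNA), against 1 of 14 passenger-arm sequences, 7 of which began with G. Among functional-arm guides 21 of 22 also had a TF target in the table, against 1 of 14 passenger-arm guides. The guide taken for the strongest site was 18 or 19 nt long for 22 of the 49 genes and for 0 of the 39 TF targets. Guides with equal signal were ordered by name, so these counts do not show that TF targets lack short guides. The 19-nt zma-miR159c-3p_L-1R-1 had sites in 7 TF targets and the 18-nt zma-miR171l-3p_L-3 in 4.

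**Figure D1:**
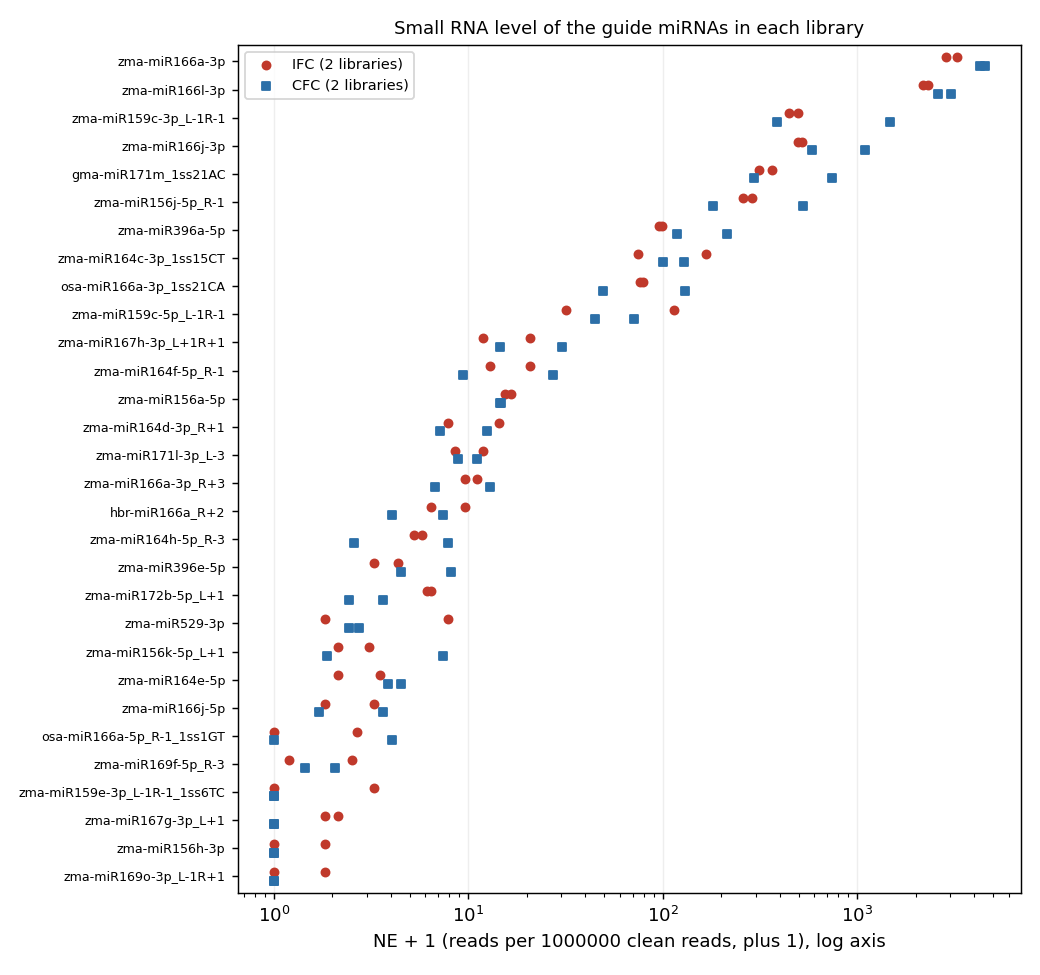
Normalized expression (NE) plus 1, on a log axis, of the 30 guides found by name in the small RNA table. Each point is 1 library, with red circles for the 2 IFC and blue squares for the 2 CFC libraries, and levels run from 4535 NE for zma-miR166a-3p in CFC down to 0.

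Guide levels spanned a wide range. The level of 31 of the 37 guides could be read from the small RNA table as normalized expression (NE, reads per 1000000 clean reads), 30 by name and 1 by sequence, and those levels came from 30 table entries. Of these 30 entries, 14 stayed under 10 in every library, as did 81 of all 161 known miRNAs, and 6 exceeded 100 in every library. No read counts per miRNA are given, and the paper states valid reads only as an average for each phenotype. The exact depth behind an NE of a library is therefore not known. The most abundant guide, zma-miR166a-3p, had 2852 and 3273 NE in the IFC libraries and 4273 and 4535 NE in the CFC libraries. The guide with the most sites, zma-miR164h-5p_R-3, had 4.28 and 4.77 NE in IFC and 1.58 and 6.91 NE in CFC, so its groups overlapped. Near the bottom, zma-miR156h-3p was listed at 0 in 3 libraries and at 0.837 NE in 1 IFC library.

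Set against the genes, the best expressed guide reached 100 NE in some library for 8 of the 49 genes and stayed under 10 for 21, and for 13 no guide level was used here. For the TF targets it reached 100 NE for 34 of 39 and stayed under 10 for 2. The 39 TF targets had 307 pairs of a miRNA and a transcript, against 93 for the 49 genes. A highest guide level thus had more chances per TF target, as did the best category and score given below. Both the miR169i-3p sequences and zma-miR159h-3p, the guide of the only category 0 site described below, are among the guides whose level was not analysed here.

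**Figure D2:**
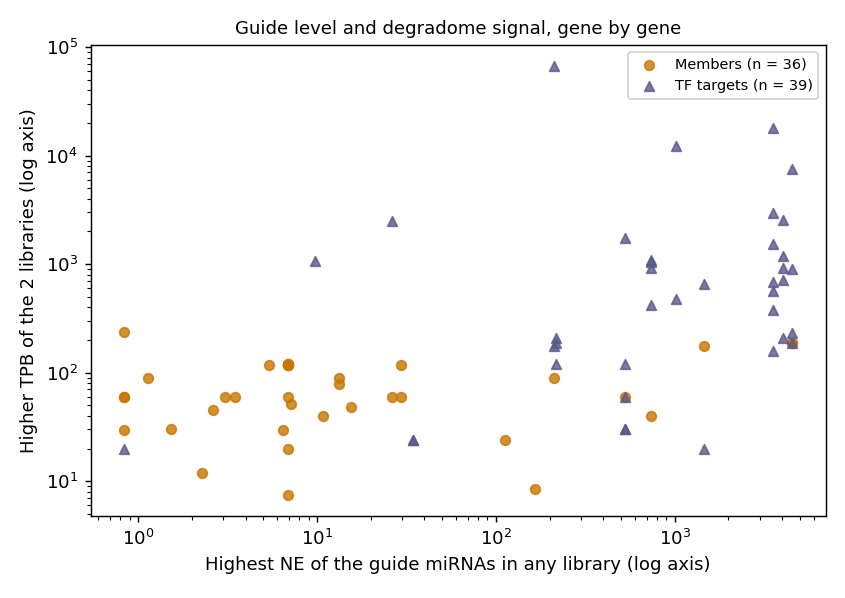
Highest NE among the guides of a gene in any library (x, log axis) against the higher degradome signal of the 2 libraries in TPB, the tags at the cut site scaled to 1000000000 raw reads (y, log axis). Orange circles are the 36 of the 49 genes (members) with a guide level and purple triangles the 39 TF targets, and 21 of the circles lie under 10 NE.

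No guide passed the limma test between the phenotypes. The paper, by a 1-tailed t-test with a fold limit, lists several of them as differing. Among these are zma-miR396a-5p, zma-miR166j-3p and gma-miR171m_1ss21AC. It also reports qRT-PCR of miR166 and miR396, which it describes as matching its sequencing. Of 145 known miRNAs, those whose NE exceeded 1 in any library, limma called 0 at an adjusted p under 0.05 (0% called, 1 at an unadjusted p under 0.05). Of the 28 guides tested 0 were called, also 0 at an unadjusted p under 0.05, and the smallest adjusted p was 0.999. Their median log2 fold change, IFC over CFC, was -0.03, against -0.02 over all 145, with 13 guides higher and 15 lower. Both IFC libraries lay below both CFC libraries for 6 of the 28 guides, where 14.5% of all known miRNAs did so, and above them for 3, where 8.28% did. The 6 were zma-miR164e-5p, zma-miR166a-3p, zma-miR166j-3p, zma-miR166l-3p, zma-miR396a-5p and zma-miR396e-5p. Of these zma-miR396a-5p had 98.5 and 94.99 NE in IFC against 118 and 213 NE in CFC, a log2 fold change of -0.70 with a standard error of 0.79. The 3 above were zma-miR156a-5p, zma-miR167g-3p_L+1 and zma-miR172b-5p_L+1, the last with 5.15 and 5.44 NE in IFC against 1.43 and 2.64 NE in CFC (log2 fold change 1.08, standard error 0.78).

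The cleavage signal itself was weak. It is given in TPB, tags per 1000000000 raw reads, and 1 tag was worth 59.1 TPB in the IFC and 59.9 TPB in the CFC library, which corresponds to 16915044 and 16680835 reads. Values below that are fractions, since a tag that fits several transcripts or places was divided between them. The median over the 49 genes, each by its strongest site, was 25.3 TPB in IFC and 30.0 TPB in CFC. The TF targets had medians of 335 TPB in IFC and 419.6 TPB in CFC, and all 113 genes 59.1 TPB in IFC and 59.9 TPB in CFC. The rule also left out strong sites for want of an annotation. GRMZM2G412073 had 7213 TPB in IFC and 7913 TPB in CFC, and GRMZM5G806833 had 1744 TPB in IFC and 1858 TPB in CFC. The remaining genes just outside the rule had at most 207 TPB. The weak signal thus describes the 49 genes under this rule only. Tag numbers here and below are values after division of tags, so more reads can lie behind them. By that count 30 of the 49 genes had at most 1 tag in either library, against 7 of the 39 TF targets. Less than 1 tag in both was left for 18 of the 49, against 6 of the 39. Among pairs of the 49 genes under 1 tag, 25 in IFC and 26 in CFC were not category 4, the category of 1 read. Above 3 tags in a library lay 4 of the 49 genes, against 28 of the TF targets. A gene listed at 0 may still have had up to 177 TPB in IFC or 179.8 TPB in CFC, the value of 3 tags.

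**Figure D3:**
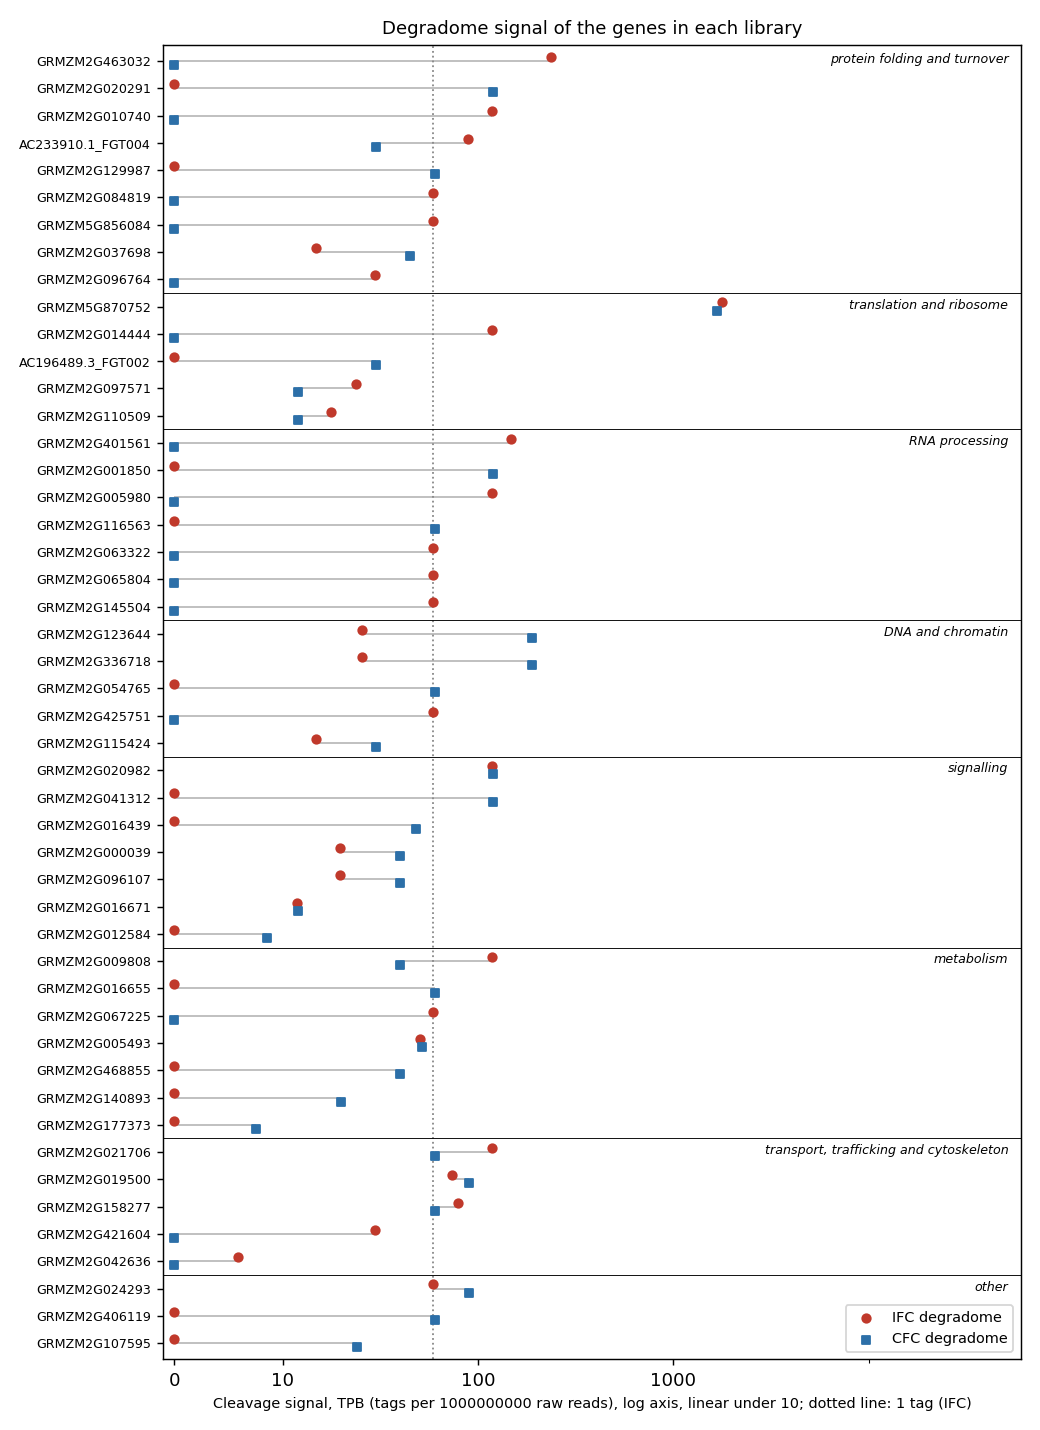
Degradome signal of the genes at their strongest site in TPB, with 1 of the 49 not shown, on an axis that is logarithmic above 10 and linear below. Red circles are the IFC and blue squares the CFC library, horizontal lines separate the roles, and the dotted line marks 1 tag in IFC. The ribosomal protein GRMZM5G870752 stands alone at 1774 TPB in IFC and 1679 TPB in CFC, and the next gene reaches 236 TPB.

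A signal in both libraries was found for 20 of the 49 genes (40.8%), in IFC only for 15 and in CFC only for 14. Among the TF targets 37 of 39 (94.9%) had one in both. Over all 113 genes 70 (61.9%) had one in both, 21 in IFC only and 22 in CFC only. The counts by role given below are to be read beside these shares. At least 1 tag in both libraries was left for 7 of the 49 genes and 29 of the TF targets.

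Peak categories describe how a site compares with the other cut positions of its transcript: in category 0 it is the single highest, in category 1 it ties for highest, in category 2 it lies above the median, in category 3 at or below it, and in category 4 it holds 1 read. Only 2 of the 49 genes reached category 0 or 1 in either library (4.08%) and 0 did so in both, against 31 of 39 TF targets (79.5%) in at least 1 library and 26 in both. In the IFC library 15 of the 49 genes had category 2 at best, 4 category 3, 15 category 4 and 14 no tag. In the CFC library 12 had category 2, 9 category 3, 12 category 4 and 15 no tag. In the 3 classes of the study, the 49 genes fell into 1 gene of class I (category 0 or 1 with a CleaveLand p-value up to 0.05), 22 of class II and 26 of class III (category 3 or 4), where the TF targets had 30 of class I, 4 of class II and 5 of class III.

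**Figure D4:**
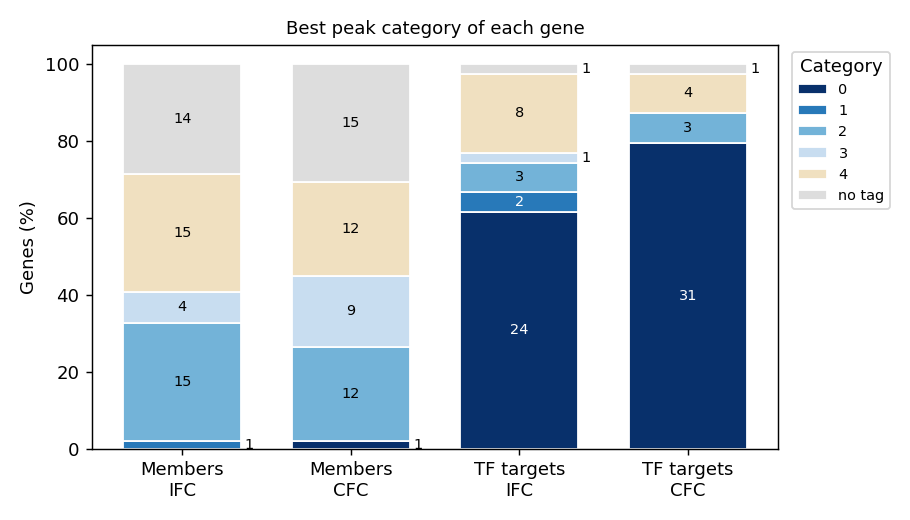
Best peak category of each gene, as a share of the 49 genes (members, left pair of bars) or of the 39 TF targets (right pair), in the IFC and the CFC degradome library, with gene counts printed in or beside the bars. Category 0, the darkest block, holds 0 members and 24 TF targets in IFC and 1 member and 31 TF targets in CFC.

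Alignments were looser too. The alignment score, a sum of mismatch penalties where 0 is a perfect match, had a median of 4.0 over the best sites of the 49 genes and of 2.0 over the TF targets. A score up to 3 was reached by 11 of the 49 genes and 36 of the 39 TF targets, and 27 of the 49 had 4. The listed position lay opposite base 10 of the miRNA in 66 of the 93 pairs, base 9 in 15 and base 11 in 12, the positions that the pipeline admitted. By gene, the strongest site lay opposite base 9 in 9 of the 49 genes and in 0 of the TF targets. A site lists a miRNA beside a tagged position, and cutting of the 49 genes by that miRNA was not tested.

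Among the signalling genes lay the only class I site. GRMZM2G041312 encodes a homolog of yeast SNF4, the regulatory subunit of the SNF1 kinase complex that responds to sugar and energy supply. Its site for zma-miR159h-3p was listed at 0 in IFC and at 119.9 TPB in CFC, which is 2 tags, and formed a category 0 peak with a CleaveLand p-value of 0.00309 and a score of 3. Since 2 tags lie under the 3 that a listed 0 allows, no difference between the libraries was detectable at this depth.

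A pair of SIT4 phosphatase-associated proteins, partners of a protein phosphatase known from yeast cell cycle control, were the only 2 of the 49 genes with miR171 sites. The GRAS genes among the TF targets of miR170 and miR171 aligned more closely, with best scores of 0. GRMZM2G000039 had a score of 2, the lowest of the 49 genes, with zma-miR171l-3p_L-3, and also paired with gma-miR171m_1ss21AC at the same position, 3311 of its transcript. Its signal was 19.7 TPB in IFC (1/3 of a tag, category 4) and 40.0 TPB in CFC (2/3 of a tag, category 3), with a CleaveLand p-value of 0.0427 in CFC for the longer guide. GRMZM2G096107, with a site of zma-miR171l-3p_L-3 at position 3250 and a score of 3, had the same 19.7 TPB in IFC and 40.0 TPB in CFC. Equal fractions at a site of the same miRNA are what tags divided between both genes give, so the pair counts as 1 observation.

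The ankyrin repeat protein GRMZM2G020982 had 118 TPB in IFC and 119.9 TPB in CFC, 2 tags in each. The protein kinase GRMZM2G016671, with a score of 3, had 11.8 TPB in IFC and 12.0 TPB in CFC, and IQ-domain 2 (GRMZM2G012584), of a calmodulin-binding family, 0 in IFC and 8.56 TPB in CFC.

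GRMZM2G016439, a histidine-containing phosphotransfer factor of the kind that relays cytokinin signals, was listed at neighbouring positions for a miRNA and its shortened form. The site of zma-miR156a-5p at position 361 of its first transcript had 0 in IFC and 48.0 TPB in CFC (4/5 of a tag), and that of zma-miR156a-5p_L-1, the same sequence without its first base, at position 360 had 1/5 of a tag in IFC and 2/5 in CFC. All 8 signalling genes had a signal in CFC and 6 of the 8 in both libraries.

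Ribosomal and translation genes held the strongest site. GRMZM5G870752, of the ribosomal protein L7Ae family, had a site at position 828 of its transcript, opposite base 10 of the miR169i-3p sequences. Its signal was 1774 TPB in IFC (30 tags) and 1679 TPB in CFC (28 tags). The libraries differed by less than the counting error, with a ratio of 1.06, IFC over CFC (95% exact conditional interval 0.61 to 1.84). Despite its height the site was category 2 in both libraries, so other positions of the transcript held more tags, and its CleaveLand p-value was at best 0.857 in IFC and 0.873 in CFC. With 30 tags in IFC it surpassed the median TF target, which had 5.67 tags, and 7 TF targets exceeded its 1774 TPB in a library.

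A further ribosomal site was seen in 1 library only for GRMZM2G014444 (ribosomal L5P family), with 118 TPB in IFC and 0 in CFC for zma-miR529-3p, and for AC196489.3_FGT002 (ribosomal protein L11 family), with 0 in IFC and 30.0 TPB in CFC for zma-miR169i-3p_R+1_2. The elongation factor Tu family GTPases, which bring aminoacyl-tRNA to the ribosome, had sites listed for both miR169i-3p sequences, with a best score of 3. Both sequences were listed at the same positions, so they are credited with the same tags. GRMZM2G097571 had 23.6 TPB in IFC and 12.0 TPB in CFC, and GRMZM2G110509 had 17.7 TPB in IFC and 12.0 TPB in CFC, all under 1 tag.

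Of 5 genes of DNA and chromatin, 2 had the same signal as a transcription factor gene. GRMZM2G123644 and GRMZM2G336718 encode proteins with an agenet and a bromo-adjacent homology (BAH) domain, modules that bind modified histones. Their sites lay opposite base 10 of all 6 miR166-3p variants, with a best score of 3. Both had 25.3 TPB in IFC (3/7 of a tag) and 188 TPB in CFC (22/7 of a tag), category 2 in each. The same pair of values stood at the HD-ZIP gene GRMZM2G552083, where the CFC site was category 0. The IFC value also stood at the HD-ZIP gene GRMZM2G003509. In CFC that gene had 231 TPB (3.85 tags), so its CFC tags were not all divided over 7 places. The fraction is what 3 tags in IFC and 22 in CFC divided over 7 places would give, but whole tags added to fractions could also give it. Under that assumed count the signal was 7.44 times higher in CFC (95% exact conditional interval 2.23 to 38.8, counting error only). The interval does not hold for another division of the tags, and which of the genes gave the tags cannot be told apart. The 6 guides did not move one way. For zma-miR166a-3p, zma-miR166j-3p and zma-miR166l-3p both IFC libraries lay below both CFC libraries. Their log2 fold changes, IFC over CFC, were -0.53, -0.65 and -0.32, with a standard error of 0.78 for zma-miR166a-3p (limma, adjusted p = 0.999). These were the abundant variants, at 496 NE or more in every library. For the other 3 the groups overlapped, and log2 fold changes were -0.04 for osa-miR166a-3p_1ss21CA, 0.14 for zma-miR166a-3p_R+3 and 0.51 for hbr-miR166a_R+2, with standard errors between 0.79 and 0.81. Those 3 were scarcer, reaching at most 129, 11.9 and 8.59 NE.

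The other genes of this group were at or under 1 tag. Alfin-like 7 (GRMZM2G115424), of a family that reads methylated histone H3, had 14.8 TPB in IFC and 30.0 TPB in CFC at a site of 2 miR169-5p guides whose sequences are identical. The DNA polymerase V family gene GRMZM2G054765, paired with zma-miR164h-5p_R-3 and zma-miR164f-5p_R-1, had 0 in IFC and 59.9 TPB in CFC. The ATM homolog GRMZM2G425751, a kinase of the DNA damage response, had 59.1 TPB in IFC and 0 in CFC.

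Protein turnover was the largest group, with 9 genes, of which 5 had a signal in IFC only, 2 in CFC only and 2 in both. FTSH protease 4 (GRMZM2G463032), a membrane-bound ATP-dependent protease, had 236 TPB in IFC (4 tags, category 2) and 0 in CFC at a site of zma-miR156h-3p with a score of 4. Set against the 3 tags that a listed 0 allows, the ratio was 1.31, IFC over CFC, before any counting error of the 4 tags. A difference was not established at this depth. A second gene of that name, GRMZM2G096764, had 29.6 TPB in IFC and 0 in CFC with the same guide. The RING finger gene GRMZM2G010740, a class that holds many ubiquitin ligases, gave the only category 1 peak, with 118 TPB in IFC (2 tags, CleaveLand p-value 0.161) and 0 in CFC for zma-miR164h-5p_R-3.

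The other RING-type genes were AC233910.1_FGT004 with 88.7 TPB in IFC and 30.0 TPB in CFC, and GRMZM2G084819 with 59.1 TPB in IFC and 0 in CFC. The SPA family gene GRMZM2G020291, which in Arabidopsis works with the ubiquitin ligase COP1 in light signalling, had 0 in IFC and 119.9 TPB in CFC. MOS4-associated complex 3A (GRMZM2G037698), a U-box protein that acts in splicing, had 14.8 TPB in IFC and 45.0 TPB in CFC. The DnaJ co-chaperones held 1 tag each, GRMZM5G856084 in IFC and GRMZM2G129987 in CFC.

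Of 7 genes placed under RNA processing, 5 had a signal in IFC only and 2 in CFC only. The U-box protein with a role in splicing, counted above under protein turnover, had one in both. The highest was GRMZM2G401561, a pre-mRNA splicing factor-related protein, with 148 TPB in IFC (5/2 tags, category 2) and 0 in CFC. The pentatricopeptide repeat gene GRMZM2G005980, of a family that edits and processes organelle RNA, had 118 TPB in IFC and 0 in CFC, and nucleolin like 2 (GRMZM2G001850), of a family that serves ribosomal RNA synthesis, had 0 in IFC and 119.9 TPB in CFC (category 3). The mRNA adenosine methylase GRMZM2G116563 had a score of 3 and 0 in IFC and 59.9 TPB in CFC. The other 3 genes each had 59.1 TPB in IFC and 0 in CFC. None of these values exceeded 3 tags after division, though more reads may lie behind the 5/2 of GRMZM2G401561.

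Among 7 metabolic genes only the xylose isomerase GRMZM2G005493 had a CleaveLand p-value under 0.05 in both libraries, 0.0403 in IFC and 0.0427 in CFC. Its site for zma-miR396e-5p had 50.7 TPB in IFC and 51.4 TPB in CFC, 6/7 of a tag in each, and category 3. Aconitase 3 (GRMZM2G009808), an enzyme of the citric acid and glyoxylate cycles, had 118 TPB in IFC and 40.0 TPB in CFC at a site of zma-miR167h-3p_L+1R+1. Allene oxide synthase (GRMZM2G067225), which makes the first committed intermediate of jasmonate, had 59.1 TPB in IFC and 0 in CFC. The other 4 had 0 in IFC and between 7.49 and 59.9 TPB in CFC.

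Of 5 genes of transport, trafficking and cytoskeleton, 3 had a signal in both libraries and 2 in IFC only. The clathrin light chain GRMZM2G019500, part of the vesicle coat, had 73.9 TPB in IFC and 89.9 TPB in CFC, and the non-intrinsic ABC protein 4 gene GRMZM2G158277 had 78.8 TPB in IFC and 59.9 TPB in CFC, both at sites of zma-miR164d-3p_R+1. The MtN3 family gene GRMZM2G021706, of the family that includes the SWEET sugar transporters, had 118 TPB in IFC and 59.9 TPB in CFC for zma-miR164h-5p_R-3. The major facilitator gene GRMZM2G421604 had 29.6 TPB in IFC and 0 in CFC, the same values as the TF target GRMZM2G148467 at a site of zma-miR156k-5p_L+1, where the TF target aligned with a score of 2 and the transporter with 4. Beta-6 tubulin (GRMZM2G042636) had 5.91 TPB in IFC and 0 in CFC.

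The last 3 genes fit none of these groups. The P-loop NTPase GRMZM2G024293 had 59.1 TPB in IFC and 89.9 TPB in CFC for zma-miR396a-5p, with category 3 in both. The CCT motif gene GRMZM2G107595 had 0 in IFC and 24.0 TPB in CFC, and the late embryogenesis abundant gene GRMZM2G406119 had 0 in IFC and 59.9 TPB in CFC.

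Counted over all groups, a TPB at least 2-fold higher in IFC, with a 0 set to the value of 1 tag, was found in 5 of the 49 genes, where 8.85% of all 113 genes passed. Among them were GRMZM2G463032, GRMZM2G401561, GRMZM2G009808 and AC233910.1_FGT004. A TPB at least 2-fold higher in CFC was found in 9 of the 49, where 19.5% of all 113 passed. These were GRMZM2G041312, GRMZM2G020291, GRMZM2G001850 (the gene with the miRNA named in capitals), GRMZM2G037698, GRMZM2G115424 and both pairs with shared tags, of the agenet and the SIT4-associated proteins. Apart from the agenet pair and GRMZM2G463032 none of the 14 had more than 3 tags in either library, counted after division of tags. By arm, the 24 genes of functional-arm guides had a median of 19.7 TPB in IFC and 49.7 TPB in CFC, and the 24 of passenger-arm guides 59.1 TPB in IFC and 17.98 TPB in CFC, values that differ by less than 1 tag.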

How the data were processed

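The 49 genes and the role groups were chosen with earlier results of these data known. The authors cleaned the small RNA reads of adapters, structural RNAs, repeats and exon sequence with ACGT101-miR, mapped the rest to miRBase precursors and deposited NE in RPM. For the degradome the authors ran CleaveLand, changed to accept cuts opposite bases 9 to 11, and TargetFinder, and deposited the signal at each site as TPB together with an alignment score, a category and a CleaveLand p-value. These p-values are theirs and were not recomputed or adjusted. For zma-miR159c-3p_L-1R-1 the sources assign the phenotypes in opposite order, and the column labels of the deposited table were used. The transcript build is not given in the sources used here, and no genome was used.

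The commonest TPB in category 4 was taken as 1 tag. All values of the 49 genes were then whole tags or fractions with a denominator up to 10, and all 29 IFC and 21 CFC pairs of category 4 were 1 tag or 1 tag over a whole number. Each gene was represented by the site with the highest mean TPB, and by the best category and score over its sites. The functional arm of a family was set by hand, and 2 guides without an arm in their name were placed by shared sequence. Genes were named with values in both libraries when they had category 0 or 1, a CleaveLand p-value up to 0.05, one of the 10 highest TPB, more than 1 guide, tags shared with a gene outside the set or a score up to 3, and the rest were given by role. The values of 1 gene of the set are not reported here, though it is counted. Gene names come from the deposited annotation. NE was fitted as log2(NE + 1) with limma 3.58.1 in R 4.3.3, two-sided, with Benjamini-Hochberg adjustment over the 145 miRNAs whose NE exceeded 1 in any library. A prior run on simulated data used changes far larger than any seen in the guides. It does not show whether changes of the observed size would be called. Nothing states that the replicates, from different rows of the ear, are independent plants, so p-values measure the spread between these samples. Other values were computed with Python 3.11.15 and scipy 1.17.1. Alternatives covered the pseudocount, filter, scaling, moderation, replicate block, each library left out, and the fold, tag and category limits. The separate table of predicted targets repeats entries of the degradome table and was not used.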

Additional observations from a re-analysis of the deposited data

How the results depend on the processing

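No guide miRNA was called under any of the 11 alternatives of the limma fit, the replicate block included, where 0 of 28 guides were called as without it. At an unadjusted p under 0.05 limma found 0 guides under each of them except 3 without CFC replicate 2, a fit in which the lone CFC library is assumed to vary like the IFC libraries. The replicate numbers are shared by IFC and CFC, and same-numbered libraries deviated together with a correlation of 0.25 over 145 miRNAs, but nothing in the labels pairs them. The median log2 fold change of the guides lay between -0.03 and 0.02 under the other settings, turning positive with median-of-ratios scaling, and between -0.33 and 0.09 with 1 library left out. The counts of genes depend on how little signal is accepted. With at least 1 whole tag asked in both libraries, 7 genes in place of 20 had a signal in both. Category 0 or 1 in both libraries left 0 genes in place of 2, and categories 0 to 2 gave 23. Genes higher in IFC by 2-fold were 5, by 1.5-fold 10, by 3-fold 1, and 3 with a 0 set to 3 tags, a setting added after seeing the data. Genes higher in CFC by 2-fold were 9, by 3-fold 3, with at least 2 tags in a library 5, and 6 with a 0 set to 3 tags. With 1 degradome library a phenotype and most genes at 1 tag or less after division, differences of a few tags are not detectable.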
